A study of Drosophila melanogaster with 120 samples.

Results

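Uba1 and rdx are genes at the start and at the selective end of the ubiquitin system of Drosophila melanogaster. They were read from the transcripts FBtr0088499 (Uba1, locus CG1782) and FBtr0082871 (rdx, roadkill, locus CG12537), which are 2 of the 16637 transcripts measured. Ubiquitin is a small protein that is joined to other proteins, often as a signal for their destruction by the proteasome. Uba1 encodes the activating enzyme (E1), which charges ubiquitin with the help of ATP and hands it to conjugating enzymes (E2), so that most ubiquitin joining in a cell passes through it. rdx encodes a BTB-domain adaptor, the fly relative of mammalian SPOP, that brings chosen proteins to the Cullin3 ubiquitin ligase (E3). Its best known target is Cubitus interruptus (ci), the transcription factor of the Hedgehog pathway, and rdx is itself a Hedgehog target in developing eyes and wings.

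Transcripts were measured on 120 single-dye (Cy3) NimbleGen arrays of amplified RNA from heads and abdomens of unmated females. The selection populations were bred for a longer reproductive lifespan, with mating first at 28 and later at 40 days of age, whereas the control populations mated at 14 days. All descended from wild-caught New Jersey flies, were set up as 3 selection and control pairs with no named allele or strain, and were kept at 25 °C in 12 h of light and 12 h of dark. After 35 generations, flies were sampled at ages of 1, 5, 15, 30 and 50 days with 2 biological replicates, which gave 20 groups of tissue, regime and day with 6 arrays each. How many flies were pooled for an array is not given in the sources used here. The population was taken as the replicate, because selection acted on populations, and the biological replicates of a population, tissue and day were averaged.

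All levels below are log2 intensities, so a difference of 1 is 2-fold. A level of Uba1 was never set against a level of rdx, since the transcripts were read by different probes. RefSeq lists 2 transcripts of Uba1 and 5 of rdx, and which of them the probes match is not given in the sources used here. Abdomens of females hold the ovaries and fat body, and heads hold the brain and eyes. In whole tissues such as these, fewer cells of a type and less RNA per cell cannot be told apart.

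The array medians lay between 9.45 and 10.03 in heads and between 9.92 and 10.45 in abdomens. The labels of tissue could not be checked against named markers, because 0 of 10 listed markers had a transcript that the tables used here tie to a gene. The 50 transcripts with the largest excess in abdomens, chosen on these same arrays, averaged 7.82 to 8.35 on single head arrays and 12.63 to 14.64 on single abdomen arrays, so no array lay between the tissues by that measure. Age was less even. A score that is 1 for the profile of day 1 and 0 for later days placed 5 head arrays opposite to their label, and another 5 arrays lay in between. The arrays labelled day-1 heads of control population 3 scored -0.03 and -0.01, and arrays labelled as heads of day 30 or 50 in control population 3, selection population 3 and control population 2 scored 0.99, 1.06 and 1.27. Those 10 arrays are among 24 (17 heads and 7 abdomens) whose correlation with the median of the other arrays of their tissue and day was at most 0.974, while it was at least 0.9751 on the remaining arrays. Of the 17 heads, 6 were selection heads and 11 were control heads, each out of 30. Head differences are given with and without all 24, a choice made after the arrays had been seen. No pair of arrays held identical values.

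Both genes had less signal in heads than in abdomens at every age. The gap was wider for rdx over all days and on days 5 to 50, but not on day 1. The Uba1 level averaged 12.79 ± 0.154 in heads and 13.80 ± 0.103 in abdomens (SD, n = 6 populations). The rdx level averaged 12.95 ± 0.219 in heads and 14.70 ± 0.0562 in abdomens. Head signal was thus 2.01-fold lower for Uba1 and 3.38-fold lower for rdx.

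Among single arrays, the lowest, median and highest Uba1 levels were 11.28, 12.88 and 13.47 in the 60 heads and 12.65, 13.84 and 14.24 in the 60 abdomens. These ranges overlapped widely, with 47 heads at or above the lowest abdomen but only 6 abdomens at or below the highest head. For rdx the corresponding levels were 11.50, 12.98 and 14.01 in heads and 13.48, 14.85 and 15.21 in abdomens. Here the overlap was small, with 9 heads and 4 abdomens in the shared range.

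Within populations the direction did not vary. Head minus abdomen for Uba1 was -1.11, -0.79 and -0.99 in selection populations 1, 2 and 3, and -1.26, -0.86 and -1.03 in control populations 1, 2 and 3. For rdx it was -1.79, -1.49 and -1.74 in the selection populations and -2.05, -1.57 and -1.90 in the control populations. All 6 populations were lower in the head for both genes, and in both genes population 2 had the smallest gap of its regime.

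With limma and Benjamini-Hochberg adjustment over all transcripts, head minus abdomen was -1.01 for Uba1 (SE 0.0644, adjusted p = 5.11e-09) and -1.76 for rdx (SE 0.07, adjusted p = 3.90e-11). The 95% intervals were -1.15 to -0.87 for Uba1 and -1.91 to -1.60 for rdx. Both genes passed the rule of an adjusted p of at most 0.05 and a difference of at least 2-fold, which 23.2% of all transcripts passed in this direction. The median transcript was itself 0.25 lower in heads (head minus abdomen -0.25), and relative to it the difference was -0.76 for Uba1 and -1.50 for rdx. Uba1 stood at the edge of the 2-fold rule. Its difference was -0.59 after quantile normalization over all arrays, -0.57 after centring each array on its median, and -0.91 without the 24 arrays of low correlation, each under 2-fold but with an adjusted p of at most 2.93e-06. For rdx it was -1.59 without the 24 arrays. The Uba1 difference also fell under 2-fold without selection population 1 (-0.99) or control population 1 (-0.96).

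**Figure D1:**
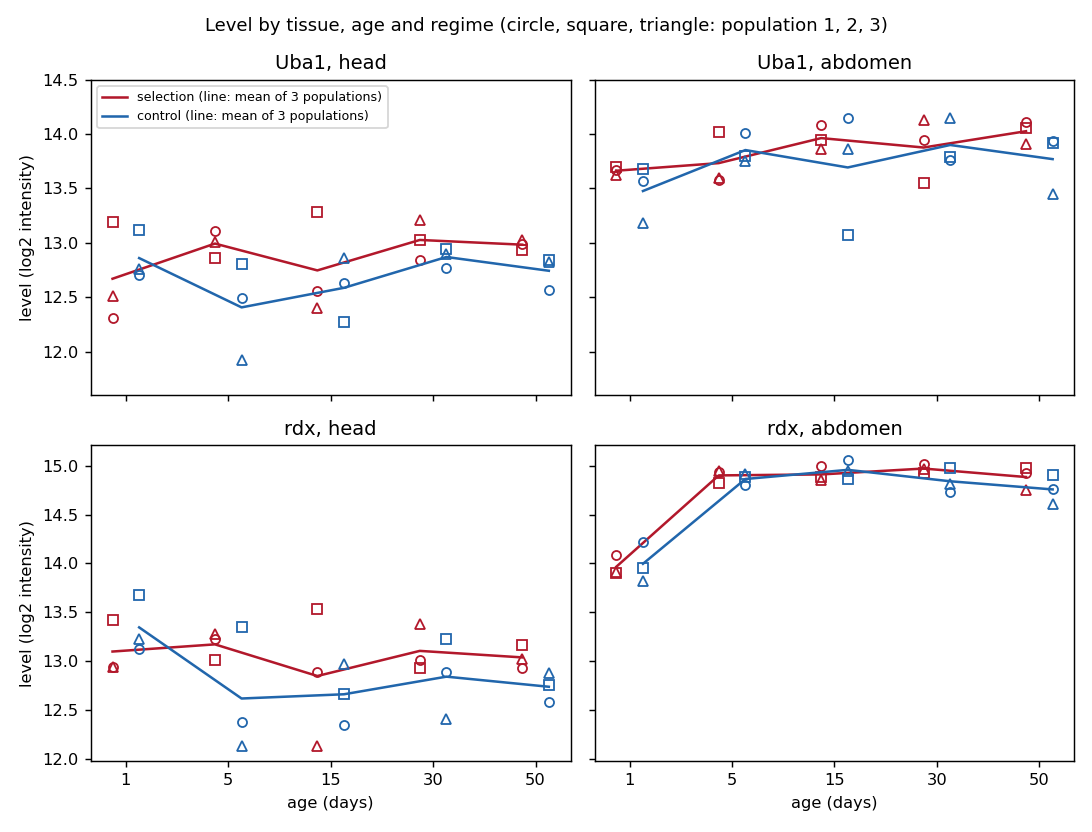
Level (log2 intensity) of Uba1 and rdx in heads and abdomens against age in days, with each symbol the average of 2 arrays of a population and each line the mean of 3 populations of a regime (selection red, control blue). The rdx level in abdomens lies near 14 on day 1 and near 15 from day 5 on, while the other panels show no step of that size shared by all populations.

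The gap between tissues was not the same at all ages for rdx. Head minus abdomen for Uba1 was -0.80, -1.09, -1.16, -0.94 and -1.03 on days 1, 5, 15, 30 and 50. For rdx it was -0.76 on day 1 and then -1.98, -2.18, -1.93 and -1.93 on the later days. Thus, with all arrays, both gaps were smallest on day 1, by a wide margin for rdx and a small margin for Uba1. Without the arrays of low correlation, the gaps on days 1 and 5 were -0.41 and -0.99 for Uba1. They were -0.23 and -1.85 for rdx. A smaller gap on day 1 was then seen in both genes, with the larger step in rdx. Only 1 control population kept day-1 heads there. With all arrays, each of the 10 differences was lower in heads in 6 of 6 populations and passed limma's test. Adjusted p-values ran from 1.41e-06 to 0.00113 for Uba1 and from 2.17e-09 to 0.00134 for rdx.

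Lower signal in heads was common in this series. The share of all transcripts called lower in heads was 49.9% on day 1, 55.3% on day 5, 48.9% on day 15, 52.3% on day 30 and 56% on day 50. Without the 24 arrays the differences on days 5 to 50 lay between -1.09 and -0.99 for Uba1 and between -1.98 and -1.85 for rdx, all called. On day 1 the calls were less secure. The rdx difference on that day was -0.33 after quantile normalization (adjusted p = 0.0607), -0.32 after median centring (adjusted p = 0.0675) and -0.23 without the 24 arrays (adjusted p = 0.0514). The Uba1 difference on day 1 was -0.33 after quantile normalization (adjusted p = 0.0695) and -0.41 without the 24 arrays (adjusted p = 0.00247).

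Ordered by level, the 5 abdomen days of each gene came before its 5 head days. For Uba1 the order was abdomen 50, 30, 15, 5 and 1, then head 30, 50, 1, 5 and 15, with means between 13.90 and 12.67. Neighbours differed by more than the larger of their SDs over populations at 2 steps, the step between abdomen day 5 (13.79 ± 0.192) and abdomen day 1 (13.57 ± 0.195) and the step between abdomen day 1 and head day 30 (12.95 ± 0.155). For rdx the order was abdomen 15, 30, 5, 50 and 1, then head 1, 30, 5, 50 and 15, with means between 14.93 and 12.76. Its 2 steps beyond the spread were those between abdomen day 50 (14.82 ± 0.14) and abdomen day 1 (13.98 ± 0.146), and between abdomen day 1 and head day 1 (13.22 ± 0.289). All other neighbours lay within their spread, so no order among the later abdomen days, or among the head days, can be read from these levels.

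Sexual maturation takes place in the days after a fly emerges, when the ovaries of a female fill with growing egg chambers. In abdomens rdx rose over this interval, and it was the clearest change with age of either gene. The rdx level was 14.88 ± 0.0597 on day 5 and 13.98 ± 0.146 on day 1 (SD, n = 6), a 1.87-fold difference. In selection abdomens the lowest, median and highest arrays were at 14.76, 14.90 and 15.01 on day 5 and at 13.72, 14.08 and 14.11 on day 1. In control abdomens they were at 14.68, 14.90 and 14.96 on day 5 and at 13.48, 14.05 and 14.37 on day 1. All 12 abdomens of day 5 lay above all 12 of day 1, a separation that was not counted over all transcripts.

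By population, day 5 minus day 1 for rdx in abdomens was 0.84, 0.91 and 1.04 in selection populations 1, 2 and 3 and 0.59, 0.93 and 1.09 in control populations 1, 2 and 3. The smallest of these belonged to control population 1, whose 2 day-1 abdomen arrays scored 0.53 and 0.51 on the scale on which day 1 is 1. The limma estimate over all 6 populations was 0.90 (SE 0.0688, adjusted p = 4.00e-10), and 26.5% of all transcripts were called higher on day 5 in abdomens. It was 0.96 without the 24 arrays, with 5 of 5 remaining populations higher on day 5.

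Uba1 in abdomens showed no such step. Its level was 13.79 ± 0.192 on day 5 and 13.57 ± 0.195 on day 1, and 4 of 6 populations were higher on day 5. The difference of 0.23 did not pass the test (limma, adjusted p = 0.22), and its 95% interval ran from -0.08 to 0.53. Its population values ranged from -0.09 in selection population 1 to 0.57 in control population 3.

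In heads neither gene passed the test for day 5 against day 1 when all arrays were used, where 19.5% of all transcripts were called. The rdx level in heads was 12.90 ± 0.517 on day 5 and 13.22 ± 0.289 on day 1, with a difference of -0.33 (95% interval -0.72 to 0.07, limma, adjusted p = 0.259). The Uba1 level in heads was 12.70 ± 0.435 on day 5 and 12.77 ± 0.343 on day 1, with a difference of -0.07 (95% interval -0.40 to 0.27, limma, adjusted p = 0.832). For both genes 4 of 6 populations were lower on day 5, and the exceptions were selection populations 1 and 3.

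Those exceptions rested on a pair of arrays. In selection population 1, the day-1 heads of biological replicates 1 and 2 were at 11.87 and 14.01 for rdx and at 11.28 and 13.33 for Uba1. In selection population 3 they were at 12.07 and 13.81 for rdx and at 11.67 and 13.36 for Uba1. In each case replicate 1 was low for both genes, and both low arrays are among the 24 of low correlation. Without the 24 arrays, 4 populations kept a day-1 head, 3 of selection and only 1 of control, and all 4 were lower on day 5 for both genes. No call of this difference is given from that fit, since only 1 population stood for the control regime on day 1. The difference was then -0.63 for rdx and -0.39 for Uba1, with rdx at 13.03 ± 0.237 on day 5 (n = 6) and at 13.73 ± 0.245 on day 1 (n = 4). With biological replicate 2 alone it was -0.73 for rdx (adjusted p = 0.0382), and with biological replicate 1 alone it was 0.08.

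The change of rdx differed between the tissues. Day 5 minus day 1 was lower in the head than in the abdomen of the same population in 6 of 6 populations, by values between -2.20 in control population 3 and -0.55 in selection population 1. The estimate was -1.23 (SE 0.201, 95% interval -1.64 to -0.81, limma, adjusted p = 3.20e-05), and 21.1% of all transcripts were called in this direction. It was -1.55 without the 24 arrays. For Uba1 the same difference was -0.29 (95% interval -0.67 to 0.08, limma, adjusted p = 0.219), with 4 of 6 populations lower in the head. Without the 24 arrays, which left day-1 heads of only 1 control population, it was -0.46 for Uba1. All 4 populations that kept both days in both tissues were then lower in the head. Whether this Uba1 value was called is not given, because of that single control population.

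**Figure D2:**
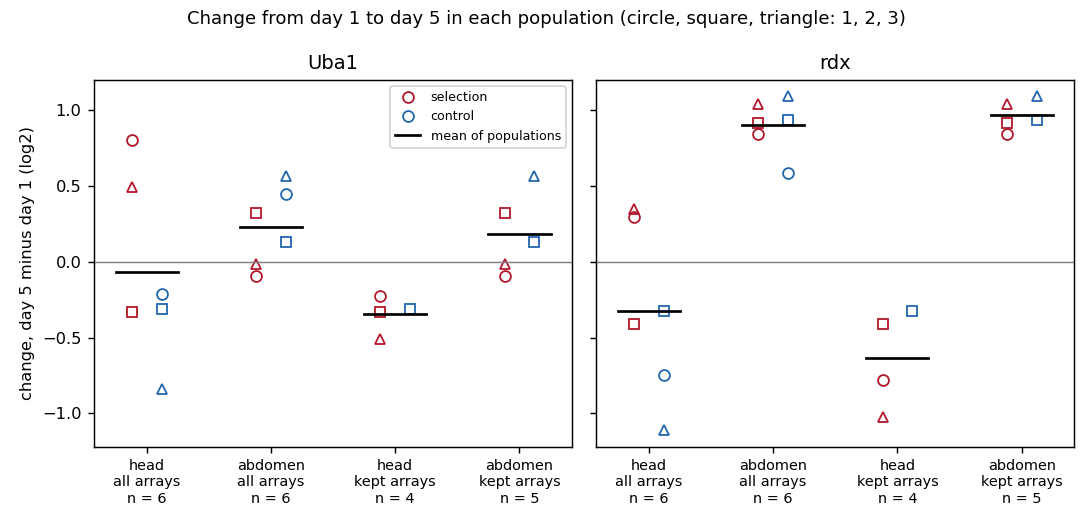
Day 5 minus day 1 (log2) of Uba1 and rdx in each population, by tissue, with all arrays and with only the kept arrays (those outside the 24 of low correlation). Symbols are populations (selection red, control blue) and black lines are means. All rdx values in abdomens lie between 0.59 and 1.09, whereas the head values spread on both sides of 0 with all arrays and lie below 0 with the kept arrays.

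From day 5 to day 50, the adult ageing interval, no change passed the test for either gene. Day 50 minus day 5 in heads was 0.17 for Uba1 (95% interval -0.17 to 0.50, limma, adjusted p = 0.872) and -0.01 for rdx (95% interval -0.40 to 0.39, adjusted p = 0.998), where 1.76% of all transcripts were called. In abdomens it was 0.11 for Uba1 (95% interval -0.19 to 0.41, adjusted p = 0.957) and -0.06 for rdx (95% interval -0.20 to 0.08, adjusted p = 0.935), where 0.914% were called. The interval of rdx in abdomens was the narrowest of these 4 and that of rdx in heads the widest. The change in heads without the 24 arrays was 0.08 for Uba1 and -0.13 for rdx, and in abdomens 0.17 for Uba1 and -0.02 for rdx, not called. Head minus abdomen of this change was 0.06 for Uba1 and 0.05 for rdx, not called, against 1.06% of all transcripts called, and -0.09 for Uba1 and -0.12 for rdx without the 24 arrays.

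No later step between neighbouring ages was called either. In abdomens, day 15 minus day 5 was 0.03 for Uba1 and 0.05 for rdx, where 0.733% of all transcripts were called. In heads the same step was -0.03 for Uba1 and -0.14 for rdx, where 0.00601% were called. The largest later step was day 30 minus day 15 of Uba1 in heads, 0.28 with 5 of 6 populations higher on day 30 (95% interval -0.06 to 0.62, limma, adjusted p = 0.688). For rdx that step was 0.22 in heads (adjusted p = 0.735). The remaining steps (day 30 minus day 15 in abdomens, and day 50 minus day 30 in both tissues) lay between -0.09 and 0.06. Such steps gave few calls in the whole series, with 0% of all transcripts called for day 30 minus day 15 in both tissues, and 0.00601% in heads and 0% in abdomens for day 50 minus day 30. In heads without the 24 arrays, day 15 minus day 5 was 0.02 for Uba1 and -0.07 for rdx, and day 30 minus day 15 was 0.10 for Uba1 and 0.0017 for rdx. Day 50 minus day 30 in heads was then -0.04 for Uba1 and -0.06 for rdx, and Uba1 in abdomens was 0.10 for day 15 minus day 5.

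Selection for a longer reproductive lifespan was the comparison for which the populations were bred, and neither gene passed its test in any tissue or at any age. Averaged over the 5 days, the Uba1 level in heads was 12.88 ± 0.156 in selection populations and 12.69 ± 0.0907 in control populations (SD, n = 3 each). The rdx level in heads was 13.05 ± 0.141 in selection populations and 12.84 ± 0.258 in control populations. The estimates of 0.19 for Uba1 (95% interval -0.04 to 0.42, adjusted p = 0.366) and 0.21 for rdx (95% interval -0.10 to 0.52, adjusted p = 0.446) were not called. Without the 24 arrays they were 0.12 for Uba1 (adjusted p = 0.714) and 0.09 for rdx (adjusted p = 0.792). With biological replicate 1 alone they were 0.03 for Uba1 and 0.09 for rdx, and with biological replicate 2 alone 0.35 for Uba1 and 0.34 for rdx. By limma 0 of 16637 transcripts (0%) were called for this contrast, although 2755 had an unadjusted p under 0.05.

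In abdomens the regimes lay closer together. The Uba1 level was 13.85 ± 0.0265 in selection abdomens and 13.74 ± 0.127 in control abdomens, a difference of 0.11 (95% interval -0.06 to 0.28, limma, adjusted p = 0.9999). The rdx level was 14.73 ± 0.0588 in selection abdomens and 14.68 ± 0.0547 in control abdomens, a difference of 0.04 (95% interval -0.09 to 0.18, limma, adjusted p = 0.9999). Here too limma called 0 transcripts, with 225 at an unadjusted p under 0.05. Leaving out the 24 arrays gave 0.06 for Uba1 and 0.05 for rdx. The regime difference in heads minus that in abdomens was 0.08 for Uba1 and 0.17 for rdx, with adjusted p-values of 0.973 and 0.959, and 0.06 for Uba1 and 0.04 for rdx without the 24 arrays.

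By age, selection populations exceeded control populations most in heads of day 5. The Uba1 averages of populations 1, 2 and 3 were 13.11, 12.86 and 13.01 in selection heads and 12.49, 12.81 and 11.92 in control heads of day 5. The rdx averages of these populations were 13.23, 13.01 and 13.28 in selection heads and 12.38, 13.35 and 12.13 in control heads. The Uba1 averages did not overlap between the regimes, but only narrowly, with 12.86 in selection and 12.81 in control population 2. The share of all transcripts without overlap on that day was not counted. For rdx the average of control population 2 lay above all 3 selection populations. Selection minus control was 0.58 for Uba1 (95% interval 0.14 to 1.03, adjusted p = 0.139) and 0.56 for rdx (adjusted p = 0.203), and limma called 0 transcripts, with 4114 transcripts below 0.05 before adjustment.

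These day-5 values turned on few populations and arrays. Without control population 2 both genes were called, at 0.79 for Uba1 (adjusted p = 0.018) and 0.92 for rdx (adjusted p = 0.00884), and so were 14.9% of all transcripts. Without the 24 arrays, a choice that keeps 5 of 6 selection heads and 4 of 6 control heads of that day, the difference was 0.28 for Uba1 (adjusted p = 0.815) and -0.04 for rdx (adjusted p = 0.9752). On day 1 the signs were the other way, at -0.19 for Uba1 and -0.25 for rdx in heads (adjusted p = 0.847 and 0.763). The change between these days, selection minus control, was 0.77 for Uba1 (adjusted p = 0.408) and 0.80 for rdx (adjusted p = 0.417) and was not called. Leaving out the 24 arrays kept day-1 heads of 3 selection populations but of only 1 control population. The day-1 difference was then 0.17 for Uba1 and 0.07 for rdx. The difference in change was 0.07 for Uba1 and -0.21 for rdx.

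On day 50 in heads, the averages of both genes lay higher in every selection population than in any control population. How many of all transcripts separated in this way was not counted. The Uba1 averages ranged from 12.93 to 13.03 in selection heads and from 12.57 to 12.84 in control heads. The rdx averages ranged from 12.93 to 13.17 in selection heads and from 12.58 to 12.88 in control heads. The differences of 0.24 for Uba1 and 0.30 for rdx did not pass the test over all transcripts (limma, adjusted p = 0.65 for each), and 0% of transcripts were called on that day, with 1140 below 0.05 before adjustment. Leaving out the 24 arrays gave 0.21 for Uba1 and 0.29 for rdx.

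On the remaining days the regimes were closer in heads, at 0.16 for Uba1 on both day 15 and day 30, and at 0.18 and 0.27 for rdx on these days. These were, without the 24 arrays, -0.09 and 0.04 for Uba1 and 0.09 and -0.02 for rdx. In abdomens the differences on single days lay between -0.12 (Uba1, day 5) and 0.27 (Uba1, day 15), with adjusted p-values of at least 0.788 (-0.12 to 0.23 without the 24 arrays), and 0.00601% of all transcripts were called on day 5 in abdomens.

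**Figure D3:**
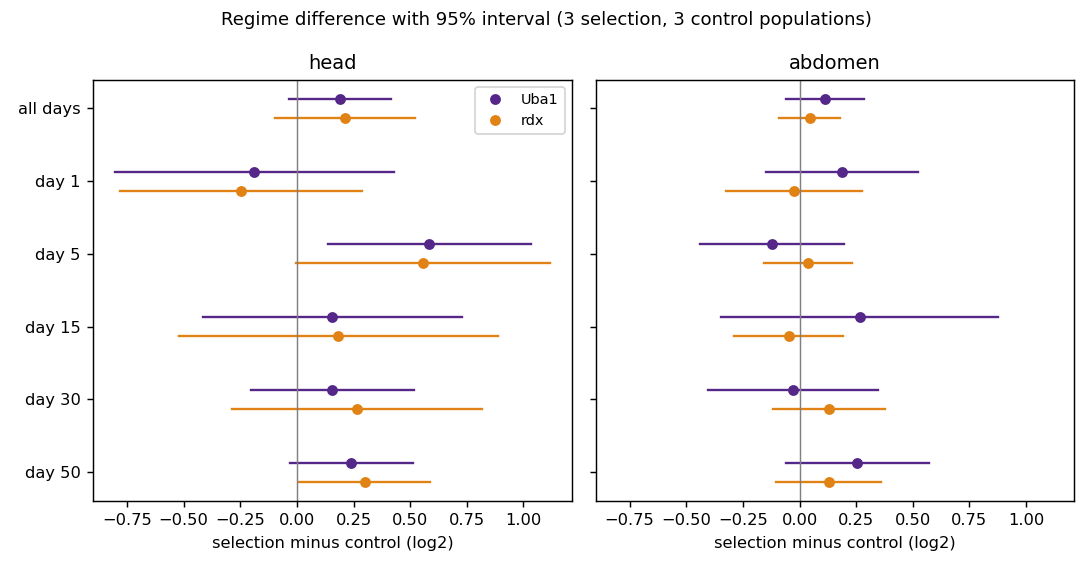
Selection minus control (log2) for Uba1 (purple) and rdx (orange) in heads and abdomens, over all days and on each day, with 95% intervals from limma over 3 selection and 3 control populations. The intervals that leave out 0 (heads of day 5 for Uba1 and of day 50 for rdx) belong to differences that did not pass after adjustment over all transcripts.

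Most of the variation of rdx in abdomens was between days. Day (4 degrees of freedom) took 83.2% of its sum of squares there and the difference between biological replicates (30 degrees of freedom) 10.0%. In heads day took 7.79% for rdx and biological replicates took 51.4%, a share that also grows with their degrees of freedom. Uba1 was closer to this head pattern, with 5.51% for day and 53.0% for replicates in heads, and in abdomens with 14.6% for day, 40.8% for population by day and 29.4% for replicates. The SD between biological replicates was 0.457 in heads and 0.241 in abdomens for Uba1, and 0.561 in heads and 0.179 in abdomens for rdx. Replicate pairs more than 1 apart were found in 3 of 30 pairs of heads for Uba1 and in 6 of 30 for rdx, and in none of the 30 pairs of abdomens for either gene.

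The low head values fell on arrays that also differed from their group in many other transcripts. The 17 heads of low correlation had Uba1 levels of 11.28, 12.49 and 13.47 (lowest, median and highest), and the other 43 heads had 12.23, 12.91 and 13.36. For rdx the 17 heads had 11.50, 12.61 and 13.87, and the other 43 had 12.63, 13.02 and 14.01. The low correlation went with a lower tail in both genes, and the upper ends lay close together. In abdomens the rdx medians were 14.88 on the 7 arrays of low correlation and 14.85 on the other 53, while the Uba1 medians were 13.44 and 13.87. The medians of all transcripts on the 17 heads ran from 9.45 to 10.03, against 9.79 to 10.01 on the other 43 heads. Whether RNA quality or a mistaken label of age played a part in these levels was not tested.

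**Figure D4:**
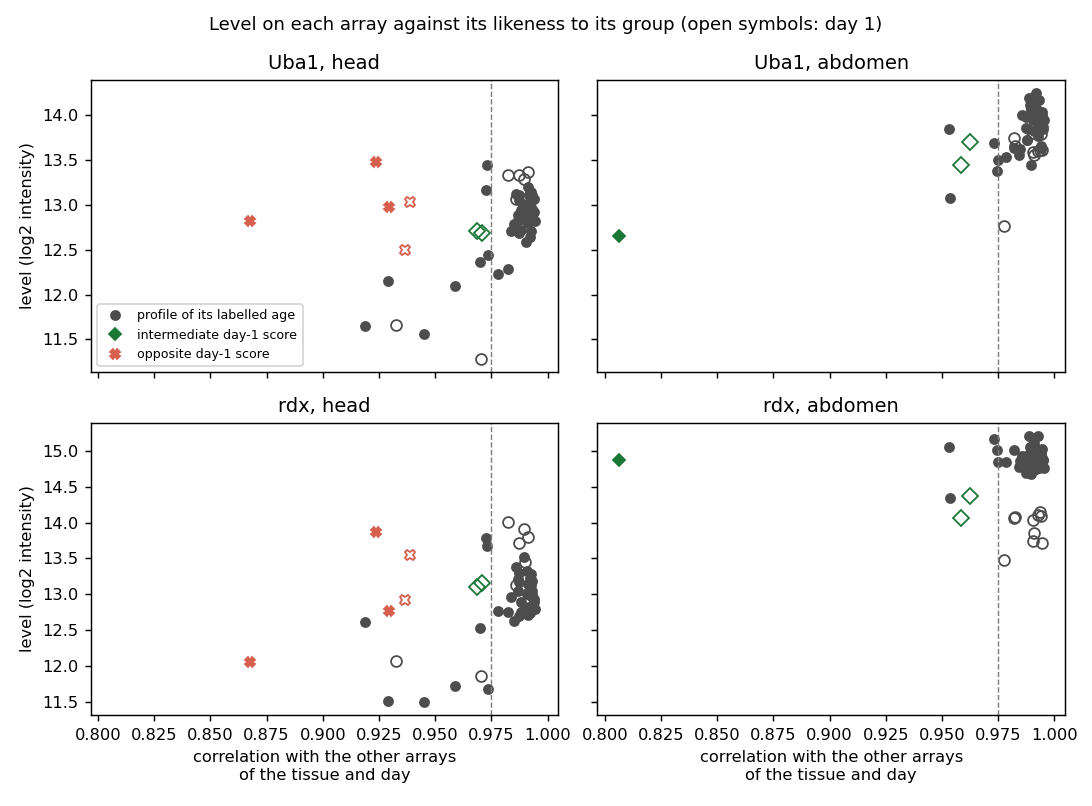
Level (log2 intensity) of Uba1 and rdx on each array against the Pearson correlation of that array, over all transcripts, with the median of the other arrays of its tissue and day. Open symbols are day 1, crosses and diamonds are arrays with an opposite or intermediate day-1 score, and the dashed line parts the 24 arrays of low correlation from the rest. The head levels below 12 for both genes lie left of the line.

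In heads Uba1 and rdx moved together from array to array. As a deviation from the mean of its tissue and day, each gene's level had a Pearson correlation with the other's of 0.832 over the 60 heads (Spearman 0.827) and of 0.578 over the 43 heads kept. In abdomens the correlation was 0.372 over 60 arrays (Spearman 0.208) and 0.419 over 53. The points of a gene share arrays, amplification and normalization with those of the other gene, so these values describe the arrays and are given without a test. The array median, which belongs to no gene, correlated with the head deviations at 0.589 for Uba1 and 0.587 for rdx, and with the abdomen deviations at 0.676 for Uba1 and 0.052 for rdx. Over the 43 heads kept it was 0.55 for Uba1 and 0.20 for rdx. The mean of the 50 transcripts of abdomen excess, which stayed low on all heads, correlated with the head deviations at -0.667 for Uba1 and -0.609 for rdx over 60 arrays, and at -0.287 for Uba1 and -0.113 for rdx over 43. Their part in the head levels was not tested.

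**Figure D5:**
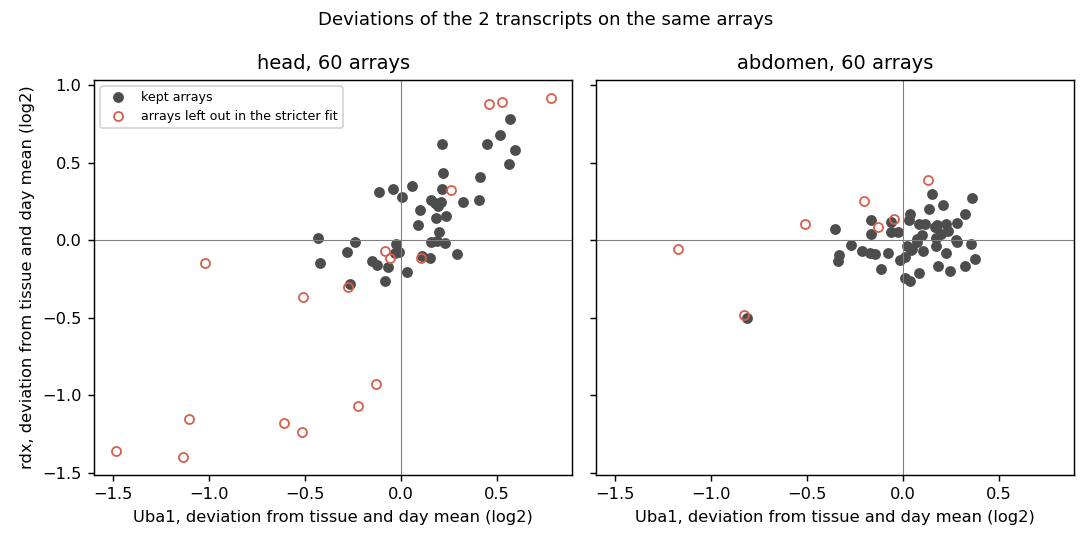
Deviation of rdx against deviation of Uba1 from the mean of their tissue and day (log2), with 1 point per array and open circles for the 24 arrays of low correlation. In heads the points run along a rising band with Pearson correlation 0.832, and in abdomens most points form a round cloud.

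The transcripts most like each gene were sought over the 60 averages of population, tissue and day, each transcript centred within its tissue. The 5 most like Uba1 were FBtr0083595, FBtr0070311, FBtr0079429, FBtr0114374 and FBtr0088880, with Pearson correlations of 0.866, 0.847, 0.847, 0.841 and 0.827. The 5 most like rdx were FBtr0072464, FBtr0073339, FBtr0086040, FBtr0078470 and FBtr0084527, with correlations of 0.908, 0.907, 0.889, 0.887 and 0.886. None of these 10 has a gene name in the tables used here. The averages share arrays and tissue means, so the correlations carry no test. Within abdomens alone the first transcript of the rdx list correlated with rdx at 0.933, and within heads at 0.902.

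The 5 transcripts most like rdx had a day 5 minus day 1 difference in abdomens of 0.77 to 1.28, beside 0.90 for rdx itself. Since the correlation that chose them covers those ages, this describes the choice and is not a separate result. Uba1 and rdx were less like each other than like these transcripts, with a correlation of 0.626. At that value rdx stood at rank 687 for Uba1, and Uba1 at rank 1318 for rdx, among 16636 transcripts.

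Of 116 genes listed for the ubiquitin system and for pathways of known rdx targets (E1 and E2 enzymes, Cullin3 and other ligases, deubiquitinases, the proteasome, Hedgehog and JNK signalling), the tables used here tie only 2 to a transcript, and these are Uba1 and rdx themselves. No statement on the other genes of the pathway is therefore possible here.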

How the data were processed

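The deposited values are log2 intensities per transcript that the authors made with RMA, per the submitters' processing notes (background correction, normalization between arrays and summary of probes). Not given in the sources used here are the version of RMA, the genome build and the annotation. All columns of the table belonged to a labelled array (0 left over). The array titled as replicate 3 of the day-15 heads of control population 3 was used as biological replicate 1, as its characteristics say.

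Biological replicates were averaged. Regimes were compared over 3 against 3 populations, ages with population, day and regime by day in the fit of a tissue (16 residual degrees of freedom), and tissues on differences within populations. All 16637 transcripts entered limma (version 3.58.1, R version 4.3.3) with the variance trend on, two-sided, at a Benjamini-Hochberg adjusted p of 0.05, and at least 2-fold for tissues over all days. The fits were tested on simulated data with independent noise on each array, without population effects, array-wide shifts or arrays of low correlation. The arrays' number limits the precision. That the biological replicates came from separate flies is not stated beyond their label.

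Uba1 and rdx, the listed genes and the tests were chosen with earlier results of these data known. Named beside Uba1 and rdx are the 5 transcripts with the highest correlation to each. Gene names came from RefSeq, which tied 16 transcripts to a gene and 28 to several; rdx was matched through a synonym entry that joins several names. The day-1 score used 200 transcripts each way. The labels describe selection and control populations as pairs; same-numbered populations correlated, in deviations from their group means, at 0.256, 0.0647 and 0.314 in heads and at -0.0335, 0.352 and 0.436 in abdomens. Alternatives were other normalizations, no trend, a filter on the mean, a biological replicate alone, each population left out, the pair or population as a block, and arrays left out.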

Additional observations from a re-analysis of the deposited data

Results flagged for a closer look

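In the 20 groups of 6 arrays, taken once for each gene (40 sets of values), 4 sets held a lowest value far from the rest by Dixon's criterion. For independent values about 1 set in 20 would do so. These sets are not independent, since both genes were read on the same arrays and each population gave 2 arrays to a group. The 4 values came from 3 arrays. The Uba1 level was 12.76 in the day-1 abdomen of control population 3, replicate 1, against 13.44 to 13.80 on the other arrays of that group. In the day-50 abdomen of control population 3, replicate 1, both genes were low, at 13.07 for Uba1 against 13.84 to 14.00 on the others and at 14.34 for rdx against 14.76 to 14.94. The Uba1 level was 11.65 in the day-15 head of control population 2, replicate 2, against 12.44 to 12.90 on the others. The last 2 of these arrays are among those of low correlation, at 0.953 and 0.919. The rdx change of day 5 over day 1 differed between tissues by -1.23 (head minus abdomen, limma, adjusted p = 3.20e-05), lower in the head in 6 of 6 populations.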

How the results depend on the processing

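No called difference changed direction under any of the 17 alternatives. Head minus abdomen of rdx over all days (-1.81 to -1.32), its abdomen difference of day 5 and day 1 (0.76 to 1.05) and the tissue difference in that change (-1.55 to -0.96, adjusted p at most 0.048) were called under each of the 15 alternatives that apply to them. For Uba1, head minus abdomen over all days was -0.59 after quantile normalization, -0.57 after median centring and -0.91 without the 24 arrays of low correlation (chosen after seeing the data), under 2-fold in each, and -1.05 to -0.96 with a population left out, under 2-fold without selection population 1 or control population 1. Those normalizations moved the median difference of all transcripts, at -0.25 as deposited, to -0.03 and 0.18. In heads, day 5 minus day 1 of rdx was 0.0797 with biological replicate 1 alone, -0.73 with replicate 2 alone (called) and -0.63 without the 24 arrays. For Uba1 it was 0.26 with replicate 1 alone, -0.39 without the 24 arrays and -0.19 to 0.10 with a population left out. Without the 24 arrays, these values rest on 1 control population for the day-1 heads, so whether they were called is not given. Day 50 minus day 5 of rdx, not called, was 0.10 in heads and 0.039 in abdomens with replicate 2 alone and -0.17 to 0.17 in heads with a population left out. With the pairs as a block, selection minus control in heads was 0.21 for rdx (adjusted p = 0.203) and 0.19 for Uba1 (adjusted p = 0.207), and the block changed no call of either gene. The cause of these shifts was not tested. The number of transcripts called in heads for day 5 minus day 1 was 3249, against 560 with replicate 1 alone. For day 50 minus day 5 it was 293 in heads, against 1605 without the 24 arrays and 55 with replicate 1 alone. In abdomens it was 152, against 431 and 74. Selection minus control over all days in heads gave 0 calls, against 59 with unaveraged arrays and population as a random block. The correlation within populations in that fit was only 0.0223 in heads, so arrays counted nearly as separate replicates. On day 5 in heads this contrast gave 0 calls, against 2471 without control population 2. The main differences of both genes were those over all days between tissues, or between regimes within a tissue, and day 5 minus day 1 and day 50 minus day 5 within a tissue. Counted over all alternatives, 3 of their values became called, 5 lost their call and 9 uncalled values crossed 0. For all other differences of both genes, 3 values became called, 4 lost their call and 73 uncalled values crossed 0.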
